A study of Mus musculus with 27 samples.

Results

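Hepatocytes of 129S1/SvImJ mice were compared with hepatocytes of C57BL/6J mice, through the 3 libraries that the labels give for each strain, 6 of the 27 libraries of the series. The series sequenced RNA of hepatocytes, the main cell type of the liver, from 9 inbred mouse strains, with 3 libraries a strain, which the labels call biological replicates. All mice were females of 12 weeks, and the labels name no treatment, transgene or diet for any group. 129S1/SvImJ is an inbred strain of the 129 family and C57BL/6J is the strain of the mouse reference genome. The groups differ by strain and not by a single gene. P-values weigh the difference between the strains against the spread between libraries within strains, estimated over all 27 libraries. The libraries are 129S1/SvImJ replicates 1, 2 and 3 and C57BL/6J replicates 1, 2 and 4, and values are given in that order throughout.

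Hepatocytes make most of the proteins of blood plasma, cholesterol and bile acids, and they break down amino acids, drugs and steroids. Cholesterol synthesis is driven by the factor SREBP2, which is held back when the endoplasmic reticulum is rich in sterol. The same organelle folds secreted proteins with the help of chaperones, whose genes are raised by the unfolded protein response. Interferons raise another set of genes, which act against viruses and present antigen.

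The 6 libraries held 27151608 to 29755561 estimated counts, and 1 count was worth 0.0286 to 0.0421 CPM (counts scaled to library size after TMM, edgeR's correction for composition). Pairs of libraries within a strain correlated at 0.973 to 0.984 across genes on the log2 CPM scale, and pairs between the strains at 0.926 to 0.946. C57BL/6J replicate 1 stood apart from replicates 2 and 4, at 0.976 and 0.973 against 0.984 between those 2 libraries. TMM factors were 1.19, 1.17 and 1.07 in 129S1/SvImJ and 1.02, 0.850 and 0.863 in C57BL/6J, so scaling moves with the strain. Nnt, a mitochondrial transhydrogenase gene that is partly deleted in C57BL/6J, measured 128, 147 and 137 CPM in 129S1/SvImJ and 42.9, 37.4 and 36.2 CPM in C57BL/6J and was 3.54-fold higher (edgeR adjusted p = 2.69e-10). Xist, which marks female cells, held 4233 to 14642 counts in the 6 libraries, and of the Y-linked genes checked, Ddx3y and Eif2s3y held 0, Uty at most 1 and Kdm5d at most 9. Casp4, which is defective in some 129 strains, held at most 6 counts in any of these libraries and did not pass (edgeR adjusted p = 0.407).

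Of 14482 genes tested, 3026 (20.9%) differed between the strains at an adjusted p under 0.05 (edgeR quasi-likelihood test, Benjamini-Hochberg). Of these, 1332 were higher in 129S1/SvImJ (9.2% of genes tested) and 1694 were lower (11.7%). A change of 2-fold or more was found in 1339 genes (9.25%), 441 of them higher (3.05%) and 898 lower (6.2%). The median log2 fold change over all genes was 0.01. The libraries of the strains did not overlap for 2575 genes with the higher values in 129S1/SvImJ (17.8%) and for 2792 with the lower ones (19.3%). Without TMM factors the median moved to 0.33 on the log2 scale and 77.6% of the calls were higher in 129S1/SvImJ, against 44.0% as reported. With TMM factors taken from genes that do not track another cell type the median moved to -0.10 and 31.3% were higher, so the balance of directions rests on scaling, and each count below is read against that. No gene called as reported was called in the opposite direction under any of the 16 other fits. The count was 4279 without C57BL/6J replicate 1, 2553 without 129S1/SvImJ replicate 3, 1848 without 129S1/SvImJ replicate 1, 1815 without C57BL/6J replicate 2, 1744 without 129S1/SvImJ replicate 2 and 1492 without C57BL/6J replicate 4. Of the genes called, 512 were called in the same direction in all 16 other fits, 267 of them higher and 245 lower.

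**Figure D1:**
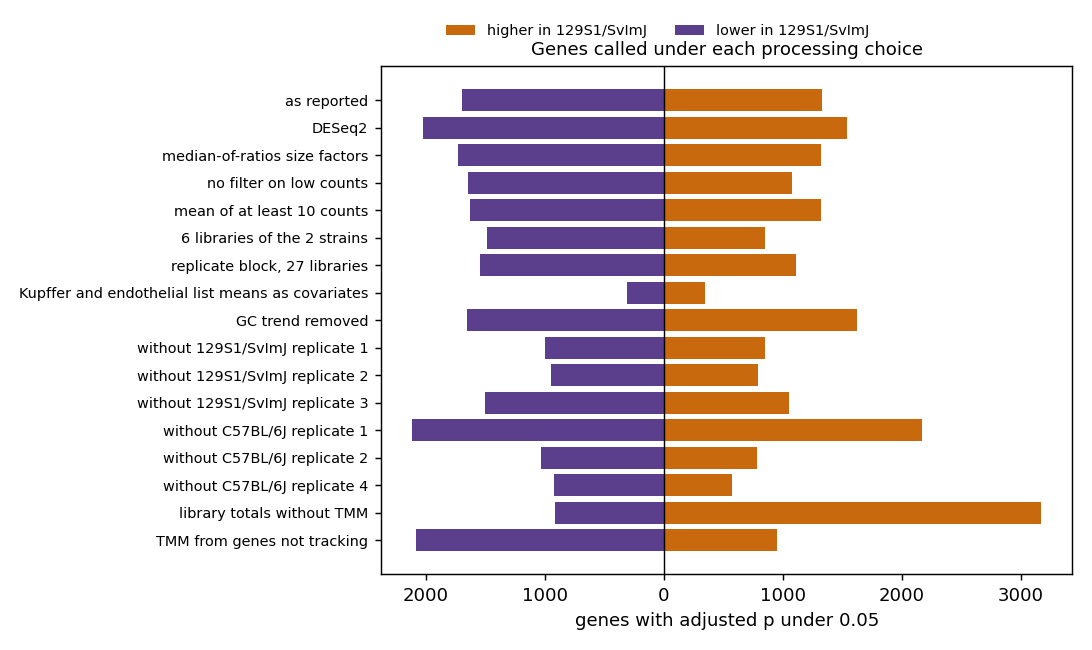
Horizontal bars count genes called at an adjusted p under 0.05, higher in 129S1/SvImJ to the right and lower to the left, for the fit as reported and 16 other processing choices. The fit as reported has 1332 and 1694, the fit without TMM factors 3169 and 914, and the fit with Kupffer and endothelial list means as covariates 342 and 308.

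Genes that vary with other cell types were set apart by a rule that used only the 21 libraries of the other 7 strains. A gene is said to track another cell type where its deviations within those strains correlated at 0.6 or more with the mean of Kupffer cell, endothelial, stellate cell or lymphocyte markers, or where it is such a marker. Of the 2599 tracking genes, 27 were higher in 129S1/SvImJ (1.04%) and 807 were lower (31.1%). Of the 11883 other genes, 1305 were higher (11%) and 887 were lower (7.46%). These counts depend on the limit: 1262 and 663 at a correlation of 0.5, and 1325 and 1199 at 0.7. Tracking describes shared variation and no source: albumin (Alb), complement C3 and 12 of the 13 tested mitochondrially encoded genes track as well. In bulk RNA, fewer cells of a type and less RNA per cell cannot be told apart.

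The largest differences are given for genes that do not track another cell type, have no predicted or pseudogene name, reach a mean of 10 CPM in the higher strain, do not overlap between the strains and have counts that are not whole in at most 3 of the 6 libraries. These limits leave out genes with larger changes whose reads may be shared with copies, among them Cyp2c39 and Cyp2c69, described with the P450 enzymes. The 12 largest increases within the limits include a sulfotransferase, a protease, a sorting receptor and an ion channel. Sult2a6, a sulfotransferase of steroids and bile acids at chr7:14222403-14254870, measured 15.1, 21.3 and 15.2 CPM in 129S1/SvImJ and 0, 0.0411 and 0.0421 CPM in C57BL/6J. The C57BL/6J libraries held 0, 1 and 1 counts, and the ratio of the strains was 670 with an exact 95% interval of 185 to 5538, which covers counting error only. Ctse, the aspartic protease cathepsin E at chr1:131638306-131675505, measured 82.6, 72.6 and 63.1 CPM in 129S1/SvImJ and 0.649, 0.287 and 0.294 CPM in C57BL/6J and was 171-fold higher (log2 7.41 ± 0.34 SE, edgeR adjusted p = 5.16e-14). The lowest 129S1/SvImJ library was at 63.1 CPM and the highest C57BL/6J library at 0.649 CPM, and no other strain had a higher mean than 129S1/SvImJ. Prom2, a prominin of membrane protrusions at chr2:127526473-127541467, measured 19.7, 17.8 and 20.2 CPM in 129S1/SvImJ and 0.103, 0.411 and 0.0841 CPM in C57BL/6J. Trhde, which degrades thyrotropin-releasing hormone, was 13.7-fold higher, and Asic5, a bile acid-sensitive ion channel, was 10.5-fold higher. Sorl1, a sorting receptor at chr9:41964720-42124297, measured 23, 28.1 and 23.7 CPM in 129S1/SvImJ and 1.64, 3.16 and 3.2 CPM in C57BL/6J, and its strain mean was again above the other 8. Pik3c2g, a phosphoinositide kinase of liver at chr6:139587221-139969284, measured 24.6, 29.8 and 22.4 CPM in 129S1/SvImJ and 3.62, 3.94 and 2.86 CPM in C57BL/6J. The C57BL/6J mean of Pik3c2g was the lowest of the 9 strains, as it was for Asic5, Sae1, Extl1 (a glycosyltransferase) and Tpmt (thiopurine methyltransferase). Fam213b, a prostaglandin F synthase, was 6.31-fold higher, Extl1 5.02-fold, Sae1, a subunit of the SUMO-activating enzyme, 4.72-fold, and Tpmt 4.56-fold. Gadd45g, a stress-induced growth arrest gene, measured 13.3, 26.5 and 49 CPM in 129S1/SvImJ and 10.8, 4.07 and 4.67 CPM in C57BL/6J, and its call was lost without 129S1/SvImJ replicate 2 or 3 or C57BL/6J replicate 2 or 4, in the fit with replicate number as a block and in the fit with Kupffer and endothelial list means as covariates (the covariate fit below).

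The 12 largest decreases within the same limits included a pigment enzyme, innate immune and adhesion genes, a female-specific secreted protein and cholesterol enzymes. Dct, dopachrome tautomerase of melanin synthesis at chr14:118012790-118052244, measured 0.186, 0.143 and 0.0326 CPM in 129S1/SvImJ and 12.5, 16.3 and 19.3 CPM in C57BL/6J and was 126-fold lower (log2 -6.98 ± 0.55 SE, edgeR adjusted p = 1.03e-09). Its level in 129S1/SvImJ was the lowest of the 9 strains. Nlrp12, a cytosolic immune sensor at chr7:3218784-3249740, measured 0.031, 0.2 and 0.13 CPM in 129S1/SvImJ and 13.2, 11.3 and 11.7 CPM in C57BL/6J. Myadm, a membrane protein whose gene lies close by at chr7:3289080-3300442, measured 4.9, 5.04 and 4.96 CPM in 129S1/SvImJ and 24.5, 37.3 and 38.8 CPM in C57BL/6J, and C57BL/6J had the highest mean of the 9 strains. A1bg, a secreted protein made mainly in female mouse liver, at chr15:60896859-60923012, measured 19.5, 29.2 and 46.9 CPM in 129S1/SvImJ and 686, 1627 and 3189.6 CPM in C57BL/6J. The strains did not overlap for A1bg, but its C57BL/6J libraries spanned 686 to 3190 CPM. Sugct, a coenzyme A transferase of mitochondria, was 11-fold lower at 1.12 ± 0.397 CPM in 129S1/SvImJ against 12.5 ± 3.99 CPM in C57BL/6J (SD, n = 3 each). Plxnb1, a semaphorin receptor at chr9:109095389-109119917, measured 8.72, 10 and 9.58 CPM in 129S1/SvImJ and 57.9, 93 and 108 CPM in C57BL/6J. In Sugct, Plxnb1, Dct, A1bg, Slc41a2 and Cyp2c55 the 129S1/SvImJ mean was below every other strain. Slc41a2, a magnesium transporter, was 6.38-fold lower, Spon2, a matrix protein, 6.08-fold, Cyp2c55, a cytochrome P450, 5.89-fold, and Cxcl9, a chemokine induced by interferon gamma, 5.81-fold. Sqle and Hmgcs1 complete the 12 and are described next. Of the 24 genes, 19 were called in all 16 other fits; A1bg, Cyp2c55 and Cxcl9 were not called in the covariate fit, and Gadd45g and Sqle were lost in several. Trhde, Sorl1, Fam213b, Tpmt, Nlrp12, A1bg, Sugct, Plxnb1, Myadm, Cyp2c55 and Hmgcs1 overlap another annotated gene, and the library kit is not stated to keep strand, so reads of such pairs cannot be told apart.

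**Figure D2:**
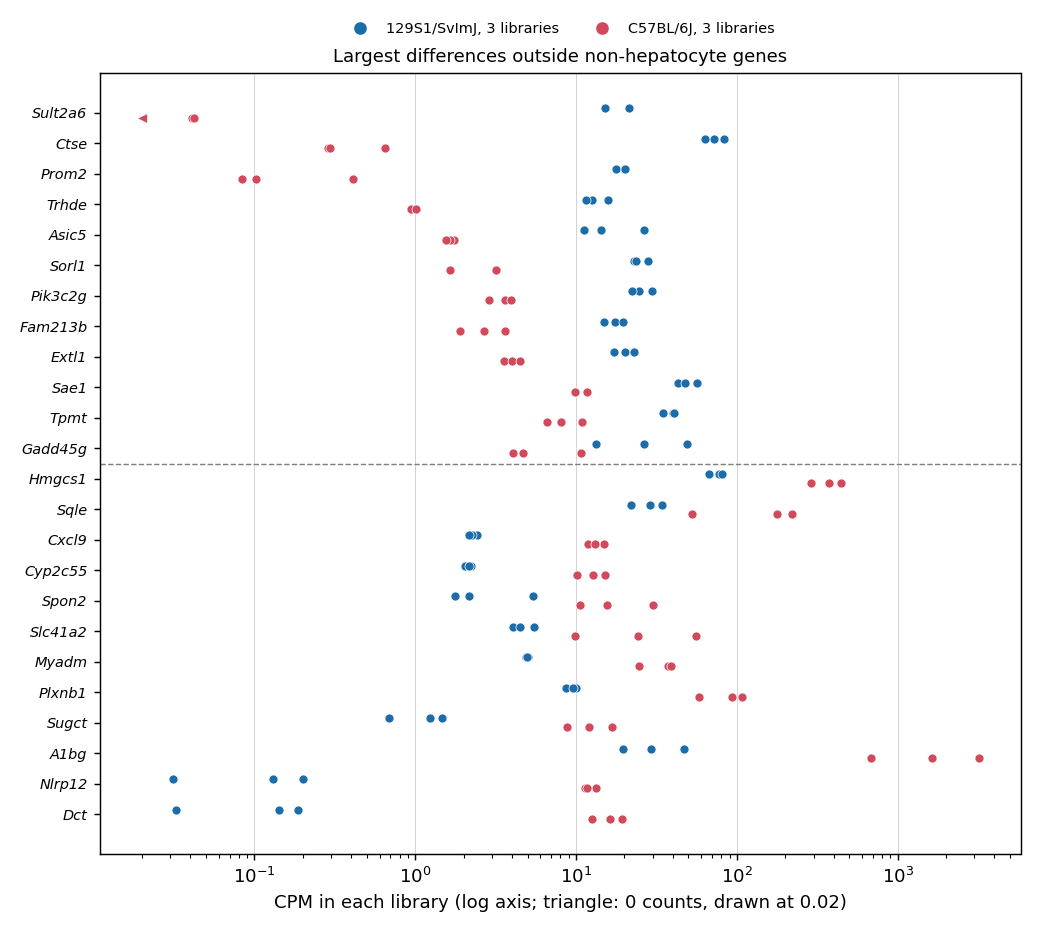
Each row is a gene and each point a library, in CPM on a log axis, for the 12 largest increases (above the dashed line) and the 12 largest decreases among genes that do not track another cell type and have counts that are not whole in at most 3 of the 6 libraries. Sult2a6, Ctse and Prom2 are separated by more than 10-fold without overlap, while A1bg, Slc41a2 and Sqle spread widely within C57BL/6J.

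Genes of cholesterol synthesis and uptake were more often lower than higher in 129S1/SvImJ. Of 27 tested, 15 were lower (55.6%, beside 11.7% of all tested genes), 1 was higher (Acat2; 3.7%, beside 9.2%) and 11 did not pass, with a median log2 fold change of -0.96 against 0.01 over all genes. Only 2 of the 15 track another cell type. Hmgcs1, the synthase that makes HMG-CoA, at chr13:119690379-119708260, measured 77.9, 81.1 and 66.8 CPM in 129S1/SvImJ and 289, 441 and 374 CPM in C57BL/6J and was 4.89-fold lower (log2 -2.29 ± 0.42 SE, edgeR adjusted p = 4.37e-04). It was called in all 16 other fits. Sqle, squalene epoxidase at chr15:59315077-59331192, measured 22, 29 and 34.3 CPM in 129S1/SvImJ and 52.7, 219 and 177 CPM in C57BL/6J, and Cyp51, the lanosterol demethylase at chr5:4081145-4104746, measured 57.5, 68.9 and 76.5 CPM in 129S1/SvImJ and 148, 443 and 375 CPM in C57BL/6J. Replicate 1 was the lowest C57BL/6J library for both, and no pair of libraries overlapped between the strains. Srebf2, which encodes SREBP2 itself, was 1.81-fold lower, at 63.2 ± 7.04 CPM in 129S1/SvImJ against 114 ± 27.9 CPM in C57BL/6J (SD, n = 3 each). Insig1, which holds SREBP in the endoplasmic reticulum, was at 373 ± 140 CPM in 129S1/SvImJ against 647 ± 287 CPM in C57BL/6J (SD, n = 3 each) and did not pass (edgeR adjusted p = 0.124). Acat2, a cytosolic thiolase at the entry to the pathway, was 1.63-fold higher, at 72.4 ± 7.81 CPM in 129S1/SvImJ against 44.3 ± 10.5 CPM in C57BL/6J (SD, n = 3 each). In 11 of the 15 lower genes the C57BL/6J mean was the highest of the 9 strains. The count of 15 was 21 without C57BL/6J replicate 1, 6 without C57BL/6J replicate 2 or 129S1/SvImJ replicate 1, 7 without C57BL/6J replicate 4 and 9 without 129S1/SvImJ replicate 2. It was 2 in the covariate fit, where Sqle, Cyp51 and Srebf2 lost the call. Sqle also lost it in the 4 leave-one-out fits that lowered the count, Srebf2 in 3 of them (not without 129S1/SvImJ replicate 2), and Acat2 without 129S1/SvImJ replicate 2 or C57BL/6J replicate 4.

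Sequence before the start of Hmgcs1 is shown because the gene carries the largest decrease of the pathway that held in all 16 other fits, and a letter match to a sterol response element. Capitals mark the match to TCACNCCAC, searched on both strands in the 250 bases before the RefSeq start (build GRCm38.p6), in which N is any base. The stretch lies at chr13:119690184-119690252 on the plus strand.
Hmgcs1: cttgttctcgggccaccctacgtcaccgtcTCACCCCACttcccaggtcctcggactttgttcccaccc
It was the only match among the 19 list members with a window, a share of 5.26% against 1.3% of all tested genes with a window. A match is a description of letters and no binding site.

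Of 28 tested genes of the unfolded protein response and chaperone list, which holds chaperones of the endoplasmic reticulum and the cytosol and stress factors, 15 were lower in 129S1/SvImJ (53.6%, beside 11.7% of all tested genes) and 13 did not pass, with a median log2 fold change of -0.67; Canx alone of the 15 tracks another cell type. Hspa5, the main chaperone BiP, at chr2:34771970-34777547, measured 378, 387 and 503 CPM in 129S1/SvImJ and 681, 1390.3 and 1353 CPM in C57BL/6J and was 2.7-fold lower (log2 -1.43 ± 0.32 SE, edgeR adjusted p = 0.00282). Hyou1, a partner chaperone at chr9:44379490-44392369, measured 80.5, 77.2 and 102 CPM in 129S1/SvImJ and 199, 379 and 384 CPM in C57BL/6J and was 3.7-fold lower (edgeR adjusted p = 5.88e-04). Creld2, a stress-induced protein of the organelle, at chr15:88819646-88826683, measured 10.9, 9.47 and 14.3 CPM in 129S1/SvImJ and 30.3, 66.5 and 49.2 CPM in C57BL/6J. For all 3 the strains did not overlap, and C57BL/6J replicate 1 was the lowest of its strain. Hsp90b1 (GRP94) was 2.08-fold lower, the lectin chaperone Calr 1.8-fold and Dnajc3, a co-chaperone, 1.73-fold. Xbp1, a transcription factor of the response, measured 108, 68.4 and 104 CPM in 129S1/SvImJ and 135, 203 and 209 CPM in C57BL/6J. Hspa8, the cytosolic chaperone HSC70, was 3.3-fold lower, at 208 ± 42.7 CPM in 129S1/SvImJ against 688 ± 177 CPM in C57BL/6J (SD, n = 3 each), but its counts were not whole in any of the 6 libraries, so reads shared with copies of the gene may enter it. Of the stress branch through ATF4, Atf4 and Ddit3 did not pass: Atf4 was at 42.8 ± 4.65 CPM in 129S1/SvImJ against 42.5 ± 6.64 CPM in C57BL/6J (SD, n = 3 each) and Ddit3, which encodes CHOP, at 1.89 ± 0.421 CPM in 129S1/SvImJ against 2.51 ± 0.0744 CPM in C57BL/6J (SD, n = 3 each). The heat shock genes Hsph1 and Hspa1b did not pass either. 129S1/SvImJ had the lowest mean of the 9 strains in 11 of the 15 genes and C57BL/6J the highest in 8. The count was 11 to 16 when single libraries were left out, and 3 in the covariate fit, where Hspa5, Creld2, Hsp90b1, Xbp1 and Calr lost the call and Hyou1, Hspa8 and Dnajc3 kept it. Calr also lost it without C57BL/6J replicate 2, and Xbp1 without 129S1/SvImJ replicate 2.

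Promoter sequences of these chaperones are shown because 7 members, all lower in 129S1/SvImJ, share a letter match to the endoplasmic reticulum stress element. Capitals mark matches to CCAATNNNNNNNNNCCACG, in which N is any base, or to the same letters on the other strand, in the 250 bases before the RefSeq start (GRCm38.p6). The stretches run 5′ to 3′ on the strand of the gene and lie at chr10:86705608-86705686 and chr10:86705510-86705581 on the minus strand (Hsp90b1), chr15:88819490-88819568 on the plus strand (Creld2), chr8:84847045-84847123 on the minus strand (Calr), chr12:17266461-17266539 on the plus strand (Pdia6), chr14:118937797-118937875 on the plus strand (Dnajc3) and chr11:50325770-50325848 on the minus strand (Canx).
Hsp90b1 far match: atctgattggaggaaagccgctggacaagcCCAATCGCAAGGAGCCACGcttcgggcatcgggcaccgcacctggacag
Hsp90b1 near match: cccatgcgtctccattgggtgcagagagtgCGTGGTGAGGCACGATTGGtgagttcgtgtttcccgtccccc
Creld2: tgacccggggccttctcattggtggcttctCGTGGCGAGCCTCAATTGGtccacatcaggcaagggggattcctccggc
Calr: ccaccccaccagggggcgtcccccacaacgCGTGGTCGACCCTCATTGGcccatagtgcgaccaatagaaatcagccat
Pdia6: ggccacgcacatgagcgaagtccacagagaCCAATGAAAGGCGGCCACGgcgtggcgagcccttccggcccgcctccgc
Dnajc3: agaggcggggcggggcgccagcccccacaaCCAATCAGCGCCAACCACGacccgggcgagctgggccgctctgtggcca
Canx: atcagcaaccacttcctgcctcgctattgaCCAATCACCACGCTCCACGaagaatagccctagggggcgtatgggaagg
Hspa5 holds a match from -65 to -47 and is the seventh member. The share with a match was 29.2% of the 24 list members with a window, against 0.172% of the 10486 tested genes with a window. Among members with a window, 7 of the 12 lower genes held it. The changes of the 7 ran from -2.08 (Creld2) to -0.66 (Pdia6) on the log2 scale.

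Of 44 tested genes induced by interferon, 29 were lower in 129S1/SvImJ (65.9%, beside 11.7% of all tested genes) and 15 did not pass, with a median log2 fold change of -1.23, and 14 of the 29 track another cell type. Among those that do not track, Irf7, a master factor of the interferon response, at chr7:141262706-141266481, measured 7.54, 4.78 and 6.68 CPM in 129S1/SvImJ and 20.3, 17.4 and 15.7 CPM in C57BL/6J and was 2.81-fold lower (log2 -1.49 ± 0.33 SE, edgeR adjusted p = 0.00253). Usp18, a brake on interferon signalling that removes ISG15, measured 2.61, 1.43 and 1.76 CPM in 129S1/SvImJ and 6.32, 11.4 and 7.91 CPM in C57BL/6J, and Oasl1, an antiviral protein of the OAS family, measured 1.71, 1.77 and 1.56 CPM in 129S1/SvImJ and 6.29, 6.61 and 7.07 CPM in C57BL/6J. None of these libraries overlapped between the strains, and Oasl1 was called in all 16 other fits. The highest correlation with a marker list was 0.584 for Irf7 (Kupffer cell), just under the tracking limit of 0.6. It was 0.305 for Usp18 and 0.142 for Oasl1. Rsad2 (viperin), which tracks another cell type, measured 2.61, 1.32 and 1.79 CPM in 129S1/SvImJ and 9.57, 13 and 14.4 CPM in C57BL/6J and was 6.46-fold lower. Bst2 (tetherin), which holds virus particles at the cell surface and also tracks, measured 51.2, 54.1 and 81.9 CPM in 129S1/SvImJ and 123, 162 and 156 CPM in C57BL/6J. Ifit3 was 2.94-fold lower, at 2.89 ± 0.563 CPM in 129S1/SvImJ against 8.52 ± 2.37 CPM in C57BL/6J (SD, n = 3 each), and Oas1a was at 0.257 ± 0.279 CPM in 129S1/SvImJ against 1.88 ± 0.248 CPM in C57BL/6J (SD, n = 3 each); both have counts that are not whole, so reads of near copies may enter. Oas3 held 3 counts over the 129S1/SvImJ libraries and 73 over the C57BL/6J libraries, a ratio of 30.8 with an exact 95% interval of 10.1 to 153. Oas3 tracks another cell type, and its counts were not whole in 4 libraries, so reads of near copies may enter. Isg15 itself was at 2.5 ± 0.641 CPM in 129S1/SvImJ against 3.98 ± 1.3 CPM in C57BL/6J (SD, n = 3 each) and did not pass (edgeR adjusted p = 0.201). Of the 29 lower genes, 129S1/SvImJ was the lowest of the 9 strains in 8 and C57BL/6J the highest in 4. The count was 20 to 28 when single libraries were left out and 4 in the covariate fit. Summed Kupffer cell markers were 68.1 to 142 CPM in 129S1/SvImJ and 335 to 428 CPM in C57BL/6J, and their part in these differences was not tested beyond the covariate fit.

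Stretches before 5 of these genes are shown because they carry the letters GAAANNGAAA, a match to the interferon-stimulated response element, on either strand. Capitals mark the matches, which may overlap each other. They lie at chr19:34583343-34583446 on the plus strand (Ifit3) and, on the minus strand, at chr5:120907526-120907575 (Oas1a), chr5:120777695-120777764 (Oas3), chr12:26456533-26456602 (Rsad2) and chr8:71537557-71537632 (Bst2), in GRCm38.p6.
Ifit3: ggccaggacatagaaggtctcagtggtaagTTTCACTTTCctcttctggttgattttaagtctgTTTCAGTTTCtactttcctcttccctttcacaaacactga
Oas1a: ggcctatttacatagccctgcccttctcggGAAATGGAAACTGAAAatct
Oas3: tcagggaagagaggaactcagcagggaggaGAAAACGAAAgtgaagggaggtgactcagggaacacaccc
Rsad2: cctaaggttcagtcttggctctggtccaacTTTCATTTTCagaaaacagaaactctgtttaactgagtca
Bst2: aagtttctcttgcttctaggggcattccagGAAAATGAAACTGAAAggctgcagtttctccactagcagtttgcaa
Matches were found in 11 of the 31 list members with a window (35.5%), against 3.37% of tested genes with a window. Among the lower members with a window, 8 of 20 held the letters. Among the members with a window that did not pass, 3 of 11 held them (Isg15, Ifit1 and Oas1g).

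Of 16 tested GTPases induced by interferon gamma, 9 were lower (56.2%, beside 11.7% of all tested genes) and 7 did not pass, with a median of -1.70, and 4 of the 9 track another cell type. Igtp, a GTPase of resistance to intracellular parasites, measured 26, 21.6 and 18.6 CPM in 129S1/SvImJ and 63.7, 88.5 and 64.2 CPM in C57BL/6J. Gvin1, a very large GTPase, measured 0, 0.372 and 0.359 CPM in 129S1/SvImJ and 5.98, 9.86 and 11.9 CPM in C57BL/6J, and its level in C57BL/6J was above every other strain; its counts were not whole in 5 libraries, nor those of Igtp in 6, so reads of copies may enter. Of 23 genes of MHC class I and antigen processing, 15 were lower (65.2%) and 8 did not pass, with a median of -0.94, and 10 of the 15 track another cell type. B2m, the light chain of MHC class I, measured 722, 756 and 1012 CPM in 129S1/SvImJ and 1243, 1625 and 1640.1 CPM in C57BL/6J and was 1.81-fold lower (edgeR adjusted p = 0.0038). H2-K1 measured 843, 823 and 1232 CPM in 129S1/SvImJ and 1605, 2048 and 2248 CPM in C57BL/6J and H2-D1 267, 251 and 375 CPM in 129S1/SvImJ and 532, 749.9 and 761 CPM in C57BL/6J. Class I genes share reads (the counts of both were not whole in all 6 libraries), so the levels of single H2 genes are uncertain. Nlrc5, the transactivator of class I genes, has whole counts and measured 5.64, 8.58 and 7.99 CPM in 129S1/SvImJ and 14.6, 18.4 and 20.9 CPM in C57BL/6J (edgeR adjusted p = 0.00879), a call lost without 129S1/SvImJ replicate 1. B2m, H2-K1, H2-D1, Nlrc5, Igtp and Gvin1 lost the call in the covariate fit. The MHC count was 11 to 16 and the GTPase count 5 to 8 when single libraries were left out, the 5 without 129S1/SvImJ replicate 2.

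**Figure D3:**
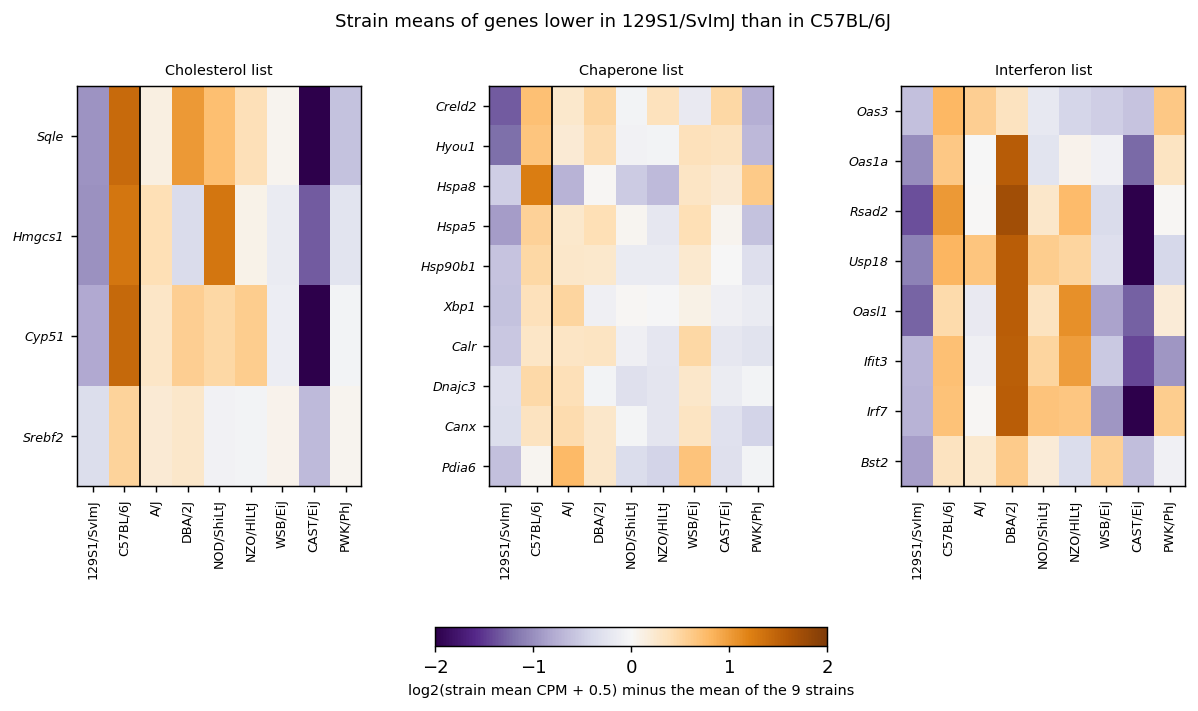
Heat maps of those cholesterol (4), chaperone (10) and interferon (8) genes lower in 129S1/SvImJ that the text names, by strain mean: colour gives log2(mean CPM + 0.5) minus the mean of the 9 strains, and the line parts 129S1/SvImJ and C57BL/6J from the other 7 strains. C57BL/6J is the highest of the 9 in each of the 4 cholesterol genes shown, and 129S1/SvImJ is the lowest in 8 of the 10 chaperone genes shown.

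**Figure D4:**
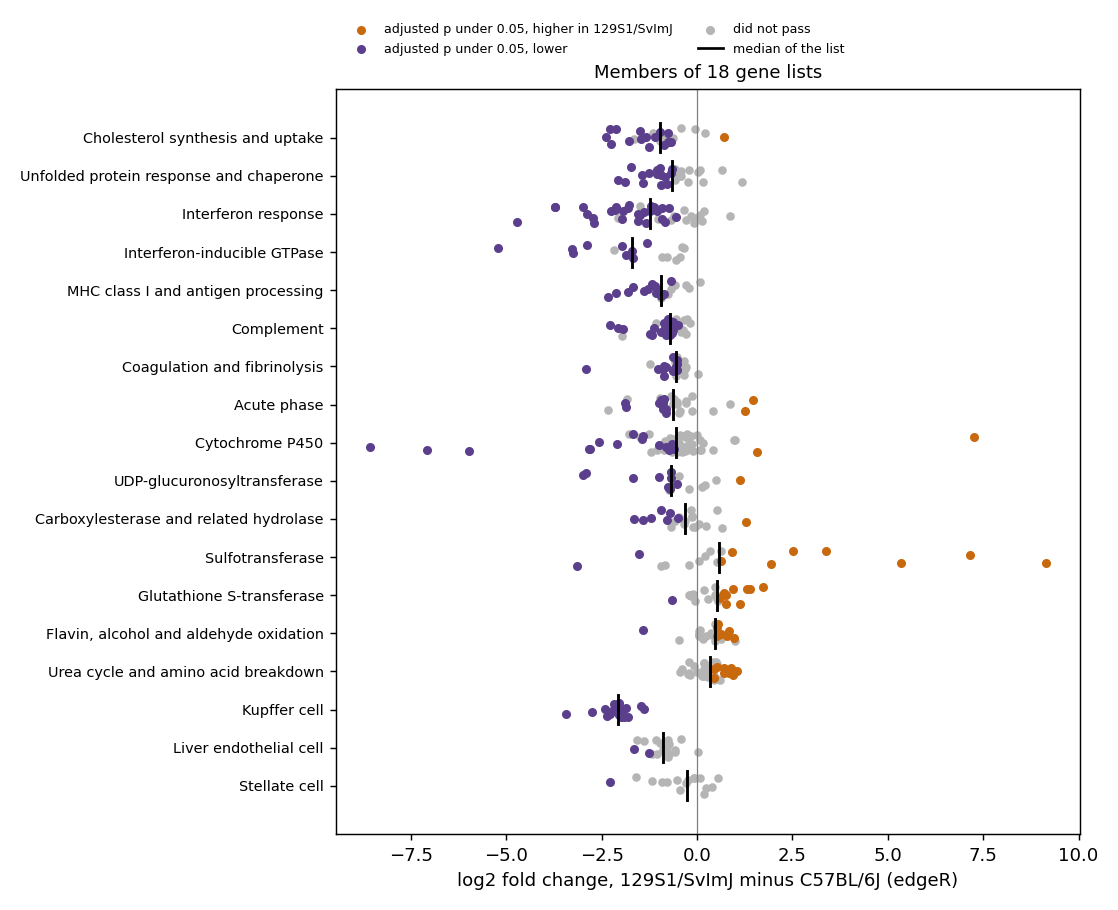
Each point is a gene, placed by its log2 fold change (129S1/SvImJ minus C57BL/6J), for 18 gene lists; orange and purple mark genes higher and lower in 129S1/SvImJ at an adjusted p under 0.05, grey the rest, and black bars the list medians. The medians run from -2.07 for the Kupffer cell list to 0.58 for the sulfotransferases.

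Among enzymes of drug and steroid metabolism, sulfotransferases, glutathione S-transferases and flavin, alcohol and aldehyde oxidases held more genes that were higher in 129S1/SvImJ, and cytochromes P450, UDP-glucuronosyltransferases and carboxylesterases held more that were lower. Of the 60 tested genes of the cytochrome P450 list, which also holds Por, the reductase that supplies P450 enzymes with electrons, 2 were higher (3.33%) and 15 lower (25%), beside 9.2% and 11.7% of all tested genes, with a median of -0.55. Cyp2c39 at chr19:39510862-39568529 measured 827, 917 and 935 CPM in 129S1/SvImJ and 5.5, 6.24 and 5.64 CPM in C57BL/6J and was 154-fold higher (log2 7.27 ± 0.23 SE, edgeR adjusted p = 1.15e-16). Cyp2c69, its neighbour in the same gene cluster, at chr19:39842814-39886799, measured 40.3, 6.67 and 16.8 CPM in 129S1/SvImJ and 1188, 1191 and 1649.6 CPM in C57BL/6J. C57BL/6J had the lowest mean of the 9 strains for Cyp2c39 and the highest for Cyp2c69. Cyp2b9, a P450 of female liver, at chr7:26173411-26210661, measured 2.76, 2.86 and 1.86 CPM in 129S1/SvImJ and 782, 1076 and 996 CPM in C57BL/6J and was 380.1-fold lower, and Cyp2b13 next to it measured 2.26, 3.52 and 1.83 CPM in 129S1/SvImJ and 224, 400.4 and 412 CPM in C57BL/6J. Cyp2b10, the classic target of the receptor CAR, measured 51.3, 48.4 and 31 CPM in 129S1/SvImJ and 298, 349.8 and 268 CPM in C57BL/6J. The Cyp2b and Cyp2c genes given here are close copies whose counts were not whole in 5 or 6 of the 6 libraries, so a level may hold reads of a neighbour. The counts of Cyp2c55, given above, were whole in all 6. Cyp2b9, Cyp2b13 and Cyp2b10 track another cell type in the other strains. The count of lower P450 genes was 11 to 20 when single libraries were left out and 4 in the covariate fit, where Cyp2c69 and Cyp2b10 lost the call.

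Of 18 sulfotransferase genes, which add sulfate to steroids, bile acids and drugs, 8 were higher (44.4%, beside 9.2% of all tested genes), 2 lower (11.1%, beside 11.7%) and 8 did not pass, with a median of 0.58. Sult3a1, at chr10:33857721-33879532, measured 716, 831 and 673 CPM in 129S1/SvImJ and 55.7, 85.1 and 71.9 CPM in C57BL/6J and was 10.4-fold higher (log2 3.38 ± 0.28 SE, edgeR adjusted p = 3.17e-09). Sult3a2, beside it at chr10:33766424-33786704, measured 171, 181 and 139 CPM in 129S1/SvImJ and 3.79, 4.27 and 4 CPM in C57BL/6J, and Sult2a4, in the cluster of Sult2a6, held 243 counts over the 129S1/SvImJ libraries and 1 over the C57BL/6J libraries, a ratio of 192 with an exact 95% interval of 34.2 to 7620.4. Counts of Sult3a1, Sult3a2 and Sult2a4 were not whole in 4 of the 6 libraries, so reads of near copies may enter. The interval does not cover such sharing. Sult1e1, the estrogen sulfotransferase, has whole counts and measured 4.53, 5.49 and 5.64 CPM in 129S1/SvImJ and 0.991, 1.6 and 0.126 CPM in C57BL/6J (edgeR adjusted p = 0.0145), a call lost without C57BL/6J replicate 4. In the other direction, Sult2a7 measured 9.89, 4.69 and 5.64 CPM in 129S1/SvImJ and 18.4, 28.3 and 11 CPM in C57BL/6J and Sult2a3 measured 0.558, 1.63 and 0.815 CPM in 129S1/SvImJ and 16.2, 8.79 and 1.56 CPM in C57BL/6J, whose libraries overlapped. Calls for Sult2a3 were lost without 129S1/SvImJ replicate 1 and for Sult2a7 without C57BL/6J replicate 2. None of the 18 tracks another cell type, and the covariate fit gave 4 increases. The number of increases was 5 without C57BL/6J replicate 4.

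Glutathione S-transferases, which conjugate electrophiles to glutathione, were higher in 9 of 22 members (40.9%, beside 9.2% of all tested genes), with 1 lower (Mgst1) and a median of 0.53. Gstm1, the mu-class enzyme that is abundant in liver, at chr3:108012255-108017973, measured 1433, 1830 and 1354 CPM in 129S1/SvImJ and 789, 733 and 581 CPM in C57BL/6J and was 2.2-fold higher (log2 1.13 ± 0.26 SE, edgeR adjusted p = 0.00358). Gstm3 measured 65.8, 127 and 62.1 CPM in 129S1/SvImJ and 18.1, 38.4 and 20.8 CPM in C57BL/6J, and Gsta2 measured 36.3, 68 and 34.5 CPM in 129S1/SvImJ and 19.6, 19.5 and 17 CPM in C57BL/6J. Gsta3, an alpha-class enzyme with whole counts, measured 698, 928 and 820.5 CPM in 129S1/SvImJ and 531, 530.4 and 426 CPM in C57BL/6J and was 1.64-fold higher. The libraries of the strains did not overlap for any of these 4. Without 129S1/SvImJ replicate 2 or C57BL/6J replicate 4 the count fell to 2, and Gstm3 and Gsta3 lost the call in both; Gsta2 lost it without 129S1/SvImJ replicate 2. In the covariate fit the 9 calls were lost (edgeR), against 12 higher members at an unadjusted p under 0.05 as reported and 9 called by DESeq2. Members of the mu, alpha and pi classes share reads: Gstm1, Gstm3, Gsta2 and Gstp1 had no whole-number library. The letters TGACNNNGC, a match to the antioxidant response element, were searched as for the lists above. They stood before 4 of the 20 members with a window (20%), against 13.7% of tested genes with a window. Among the 7 higher members with a window, 1 held them. Of the 25 flavin, alcohol and aldehyde oxidation genes, 7 were higher (28%), among them Fmo5 at 319, 481 and 479 CPM in 129S1/SvImJ and 233, 221 and 202 CPM in C57BL/6J, and 1 was lower. The lower gene, Xdh, xanthine dehydrogenase of purine breakdown, measured 43.3, 53.5 and 36.6 CPM in 129S1/SvImJ and 102, 121 and 133 CPM in C57BL/6J and was called in all 16 other fits. The 7 increases became 3 without 129S1/SvImJ replicate 2 or C57BL/6J replicate 4, 4 without 129S1/SvImJ replicate 3, and 14 without TMM factors.

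Among 17 UDP-glucuronosyltransferases, 9 were lower (52.9%, beside 11.7% of all tested genes) and 1 was higher, with a median of -0.67, and 6 to 11 were lower when single libraries were left out. Ugt1a5 measured 36.7, 60.8 and 56.9 CPM in 129S1/SvImJ and 205, 446 and 509 CPM in C57BL/6J and Ugt1a9 515, 679 and 657 CPM in 129S1/SvImJ and 297, 261 and 289 CPM in C57BL/6J; they are alternative first exons of the same locus, so their counts divide shared reads. Of 22 carboxylesterases and related hydrolases, 7 were lower (31.8%) and 1 higher. Aadac, arylacetamide deacetylase, measured 202, 241 and 274 CPM in 129S1/SvImJ and 421, 598 and 637 CPM in C57BL/6J, and Pon1, the paraoxonase of high-density lipoprotein, measured 758, 785 and 863 CPM in 129S1/SvImJ and 1320, 1657 and 1623 CPM in C57BL/6J. Both have whole counts, track another cell type and were called in all 16 other fits. Leaving out 129S1/SvImJ replicate 1 or C57BL/6J replicate 2 or 4 left 4 lower members.

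Enzymes of the urea cycle and amino acid breakdown were higher in 129S1/SvImJ where they passed. Of 36 tested, 9 were higher (25%, beside 9.2% of all tested genes) and 27 did not pass, with a median of 0.34. Gnmt, the glycine methyltransferase that spends S-adenosylmethionine, at chr17:46725664-46729168, measured 825, 1171 and 1309 CPM in 129S1/SvImJ and 557, 609 and 557 CPM in C57BL/6J and was 1.92-fold higher (log2 0.94 ± 0.21 SE, edgeR adjusted p = 0.00306). Ass1, argininosuccinate synthase, whose counts are not whole, measured 2399, 3539.5 and 3106 CPM in 129S1/SvImJ and 1336, 1922 and 1780 CPM in C57BL/6J, and Got1, cytosolic aspartate aminotransferase, measured 238, 414 and 297 CPM in 129S1/SvImJ and 134, 200.4 and 123 CPM in C57BL/6J. All 129S1/SvImJ libraries were above all C57BL/6J libraries for these 3. Cps1, the entry enzyme of the urea cycle, was at 4911 ± 1122 CPM in 129S1/SvImJ against 4345 ± 1540.3 CPM in C57BL/6J (SD, n = 3 each) and did not pass (edgeR adjusted p = 0.617). The count of 9 was 13 without C57BL/6J replicate 1, 5 without C57BL/6J replicate 4 or 129S1/SvImJ replicate 2, 6 without C57BL/6J replicate 2 or 129S1/SvImJ replicate 3, and 22 without TMM factors. Got1 lost its call without 129S1/SvImJ replicate 2 or C57BL/6J replicate 4. In the covariate fit none of the 9 was called (edgeR), while 15 members were higher at an unadjusted p under 0.05 and 11 by DESeq2 without the covariates.

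Complement and coagulation genes that passed the test were all lower in 129S1/SvImJ. Of 33 complement genes, 21 were lower (63.6%, beside 11.7% of all tested genes) and 12 did not pass, with a median of -0.71; 18 of the 21 track another cell type. C3, the central complement protein and 1 of the 5 called genes with the most counts, measured 11764, 11909 and 13585 CPM in 129S1/SvImJ and 15956, 21779 and 23398 CPM in C57BL/6J and was 1.64-fold lower (edgeR adjusted p = 0.0414), a call lost in 9 of the 16 other fits. C6 and C9, which form the membrane attack complex, do not track another cell type. C9 measured 96.1, 88.1 and 126 CPM in 129S1/SvImJ and 157, 254 and 289.8 CPM in C57BL/6J, and C6 measured 1.92, 2 and 2.61 CPM in 129S1/SvImJ and 9.09, 8.05 and 14.7 CPM in C57BL/6J. Mbl2, a mannose-binding lectin, measured 276, 266 and 374 CPM in 129S1/SvImJ and 630.4, 761 and 772 CPM in C57BL/6J. Neither C6, C9 nor Mbl2 overlapped between the strains, and all 3 lost the call in the covariate fit, where 1 complement gene stayed lower. Of 28 coagulation genes, 12 were lower (42.9%), with a median of -0.54. Fgb, a chain of fibrinogen, measured 4417, 3286 and 4243 CPM in 129S1/SvImJ and 5668, 8269 and 7852 CPM in C57BL/6J and was 1.82-fold lower, a call lost without 129S1/SvImJ replicate 2. The complement count was 10 to 23 and the coagulation count 2 to 21 when single libraries were left out, lowest without C57BL/6J replicate 4 and without 129S1/SvImJ replicate 2, and highest without C57BL/6J replicate 1. Coagulation also fell to 4 without C57BL/6J replicate 2 or 4 and 6 without 129S1/SvImJ replicate 1, and complement to 11 and 12 without 129S1/SvImJ replicate 2 and 1.

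In the acute phase list 9 of 27 were lower (33.3%) and 2 were higher (7.41%), beside 11.7% and 9.2% of all tested genes. Orm2, an orosomucoid, was 3.69-fold lower, and Apcs, serum amyloid P, was 2.39-fold higher at 267, 259 and 408 CPM in 129S1/SvImJ and 66.8, 175 and 149 CPM in C57BL/6J. Apcs was called in all 16 other fits. Among the called genes with the most counts, Ahsg (fetuin-A) measured 8418, 6316 and 8632 CPM in 129S1/SvImJ and 11673, 15252 and 13146 CPM in C57BL/6J, Mup10, a major urinary protein, 6932, 4174 and 3877 CPM in 129S1/SvImJ and 11831, 15662 and 14544 CPM in C57BL/6J, Pzp (an alpha-2-macroglobulin) was 1.63-fold lower, and Selenop, the selenium carrier, 1.49-fold. Ahsg lost its call without 129S1/SvImJ replicate 2 or C57BL/6J replicate 2, Orm2 without C57BL/6J replicate 2, both of these and Mup10 in the covariate fit, and the calls of Pzp and Selenop were lost in 8 of the 16 other fits. Mup10 shares reads with the other urinary protein genes. The 9 lower members became 3 without 129S1/SvImJ replicate 2 or C57BL/6J replicate 2, 4 without C57BL/6J replicate 4 and 5 without 129S1/SvImJ replicate 1, and the 2 higher became 1 without 129S1/SvImJ replicate 3 or C57BL/6J replicate 2 or 4. Of 20 Serpina genes, 3 were higher (15%) and 4 lower (20%). Serpina1d, an alpha-1-antitrypsin, measured 1014, 993 and 1084 CPM in 129S1/SvImJ and 5374, 6816 and 7244 CPM in C57BL/6J, Serpina1c 2226, 1967 and 2652 CPM in 129S1/SvImJ and 7040.1, 6976 and 7927 CPM in C57BL/6J, and Serpina3c, in the same cluster, 136, 101 and 98.3 CPM in 129S1/SvImJ and 0.581, 0.78 and 0.589 CPM in C57BL/6J. Levels of single serpins are uncertain, since none of these 3 had whole counts and close copies can share reads.

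Lipoprotein genes were lower in 8 of 25 members (32%) and higher in 2 (8%), beside 11.7% and 9.2% of all tested genes. Apoa4, an apolipoprotein of triglyceride-rich particles, at chr9:46240696-46243459, measured 1099.8, 1351 and 1895 CPM in 129S1/SvImJ and 215, 163 and 175 CPM in C57BL/6J and was 7.85-fold higher (log2 2.97 ± 0.36 SE, edgeR adjusted p = 2.04e-06). Its mean was the highest of the 9 strains. Pltp, the phospholipid transfer protein, measured 5.99, 6.24 and 8.41 CPM in 129S1/SvImJ and 49.9, 62.5 and 85.3 CPM in C57BL/6J and was 9.57-fold lower; it tracks another cell type, and C57BL/6J had the highest mean. Both genes overlap other annotated genes. Mttp, which loads lipid on apolipoprotein B, measured 310.4, 299 and 301 CPM in 129S1/SvImJ and 493, 553 and 597 CPM in C57BL/6J, and Apob was 1.65-fold lower at 4776 ± 426 CPM in 129S1/SvImJ against 7879 ± 1430.1 CPM in C57BL/6J (SD, n = 3 each). Lipogenic genes gave 5 lower of 24 (20.8%), and Fasn, the fatty acid synthase, measured 213, 427 and 467 CPM in 129S1/SvImJ and 387, 986 and 865 CPM in C57BL/6J with overlap between the strains. The Fasn call was lost without 129S1/SvImJ replicate 1 or 2, without C57BL/6J replicate 2 or 4, without TMM factors, in the fit of the 6 libraries alone, with the GC trend removed and in the covariate fit. The Apob call was lost without 129S1/SvImJ replicate 3 or C57BL/6J replicate 4, without TMM factors and in the covariate fit. In fatty acid oxidation, 2 of 36 were higher (Acadm and Acads) and 4 lower (Vnn1, Cpt1a, Creb3l3 and Slc25a20), shares of 5.56% and 11.1%, close to or below those of all tested genes. Acadm, the medium-chain acyl-CoA dehydrogenase, measured 409, 371 and 371 CPM in 129S1/SvImJ and 276, 154 and 135 CPM in C57BL/6J. Vnn1, a pantetheinase and a target of PPAR-alpha, measured 91.5, 53.7 and 41.3 CPM in 129S1/SvImJ and 242, 103 and 112 CPM in C57BL/6J, and Cpt1a, which carries fatty acids into mitochondria, was 1.62-fold lower. Both of these calls were lost without 129S1/SvImJ replicate 2 or 3, the Vnn1 call also without C57BL/6J replicate 1 and the Cpt1a call without C57BL/6J replicate 4. None of the 4 lower genes was called (edgeR) without 129S1/SvImJ replicate 2; as reported 6 members were lower at an unadjusted p under 0.05 and 5 by DESeq2. The lower lipoprotein genes numbered 3 or 4 when any library but 129S1/SvImJ replicate 3 or C57BL/6J replicate 1 was left out. Lower lipogenic genes ranged from 0 (without 129S1/SvImJ replicate 1 or C57BL/6J replicate 4) to 9 (without C57BL/6J replicate 1), and higher oxidation genes reached 10 without C57BL/6J replicate 1.

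Genes whose level in liver depends on sex were called in both directions. Of 24 female-biased genes, 4 were higher (Sult2a5, Sult2a6, Sult3a1 and Hao2) and 6 lower (Cyp2b9, Cyp2b13, A1bg, Sult2a3, Atp6v0d2 and Prlr), shares of 16.7% and 25% beside 9.2% and 11.7% of all tested genes. Hao2, a peroxisomal hydroxyacid oxidase, measured 53.7, 55.8 and 66.7 CPM in 129S1/SvImJ and 27, 11.4 and 17.2 CPM in C57BL/6J. Of 13 male-biased genes, 5 were lower (38.5%) and 8 did not pass. Mup20 (darcin), a urinary protein of males, measured 7.75, 8.07 and 10.2 CPM in 129S1/SvImJ and 60, 67.5 and 54 CPM in C57BL/6J, and Elovl3, a fatty acid elongase, measured 5.99, 1.92 and 2.84 CPM in 129S1/SvImJ and 13, 13.1 and 14.7 CPM in C57BL/6J. The libraries of the strains did not overlap for these 3; Hao2 lost its call without C57BL/6J replicate 2, and Elovl3 in the covariate fit.

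Of 28 heme and iron genes, 6 were higher (21.4%) and 4 lower (14.3%), beside 9.2% and 11.7% of all tested genes. Alad, the second enzyme of heme synthesis, measured 156, 166 and 190 CPM in 129S1/SvImJ and 94.9, 81.7 and 69.2 CPM in C57BL/6J and was 2.08-fold higher in a call made in all 16 other fits. Hmox1, which breaks heme down and tracks another cell type, measured 2.76, 3.41 and 4.79 CPM in 129S1/SvImJ and 11.9, 12.8 and 9.21 CPM in C57BL/6J. The 6 increases became 2 without C57BL/6J replicate 4, and the 4 decreases 7 without C57BL/6J replicate 1. Of 17 imprinted genes tested, 4 were higher (23.5%) and 13 did not pass; 1 or 2 were higher without 129S1/SvImJ replicate 1 or 2 or C57BL/6J replicate 2 or 4. Grb10, an adaptor that restrains insulin signalling, at chr11:11930508-12038683, measured 9.3, 9.27 and 7.89 CPM in 129S1/SvImJ and 0.923, 0.78 and 0.841 CPM in C57BL/6J and was 10.3-fold higher (log2 3.37 ± 0.26 SE, edgeR adjusted p = 9.84e-10). It was called in all 16 other fits, and 129S1/SvImJ had the highest mean of the 9 strains. Of the pericentral genes, expressed around the central vein, 7 of 18 were lower (38.9%) and 11 did not pass, with a median of -0.43. Slc1a2, a glutamate transporter, measured 34.5, 36.4 and 31.5 CPM in 129S1/SvImJ and 103, 158 and 142 CPM in C57BL/6J. Glul, glutamine synthetase and the best known of this zone, was at 221 ± 72.3 CPM in 129S1/SvImJ against 260.5 ± 82.9 CPM in C57BL/6J (SD, n = 3 each) and did not pass. The 7 became 3 without 129S1/SvImJ replicate 1 or C57BL/6J replicate 2 and 4 without 129S1/SvImJ replicate 2. Among 17 genes listed as known to differ between strains, Ren1 (renin) held 50, 88 and 63 counts in 129S1/SvImJ and 0 in each C57BL/6J library, at least 17.4-fold higher against a floor of 3 counts per library. Naip2, a sensor of bacterial secretion systems, measured 0.248, 0.343 and 0.717 CPM in 129S1/SvImJ and 8.89, 9.36 and 10.1 CPM in C57BL/6J, and Abcc6, a transporter linked to calcification, measured 106, 104 and 135 CPM in 129S1/SvImJ and 254, 369.7 and 434 CPM in C57BL/6J. Wdfy1, an endosomal protein, was 2.54-fold higher, at 17.5 ± 0.754 CPM in 129S1/SvImJ against 6.93 ± 1.8 CPM in C57BL/6J (SD, n = 3 each).

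Other lists are read against 9.2% higher and 11.7% lower over all tested genes. Mitochondrially encoded genes were lower in 5 of 13, with a median of -0.77, but none was called (edgeR) without 129S1/SvImJ replicate 1 or 2 or C57BL/6J replicate 2 or 4; as reported 11 were lower at an unadjusted p under 0.05 and 8 by DESeq2. Bile acid genes were higher in 1 of 24 (4.17%) and lower in 4 (16.7%), periportal genes higher in 2 of 16 (12.5%) and lower in 4 (25%), and cell cycle genes lower in 5 of 27 (18.5%). Genes of NADPH supply, Nnt among them, were higher in 3 of 15 (20%) and lower in 1, Nrf2 targets higher in 3 of 18 (16.7%) and lower in 1, and metal transport genes higher in 1 of 12 and lower in 3 (25%). Shares near those of all genes were found for glucose genes, higher in 2 of 24 (8.33%) and lower in 2, lipid droplet genes, higher in 1 of 19 (5.26%) and lower in 2 (10.5%), and growth hormone axis genes, higher in 1 of 15 (6.67%) and lower in 2 (13.3%). Leaving out single libraries moved several of these counts: bile acid decreases ran from 0 (without C57BL/6J replicate 4) to 8 (without C57BL/6J replicate 1), Nrf2 increases from 0 (without 129S1/SvImJ replicate 1 or 2 or C57BL/6J replicate 2 or 4) to 6 (without C57BL/6J replicate 1), and cell cycle decreases from 1 (without 129S1/SvImJ replicate 1 or C57BL/6J replicate 2) to 6.

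Several lists held calls near or below the background of 9.2% higher and 11.7% lower. In the aryl hydrocarbon receptor list none of 9 was called by edgeR, with 2 lower at an unadjusted p under 0.05 and 2 called by DESeq2. None of 15 immediate early genes was called by edgeR or DESeq2, and 1 was higher at an unadjusted p under 0.05. Of 30 chromatin regulators 1 was lower (Hdac1), of 36 liver transcription factors and nuclear receptors 2 were higher and 1 lower, and of 20 clock genes 1 was higher and 1 lower (Per2). The Hdac1 and Per2 calls were each lost without 129S1/SvImJ replicate 2 or C57BL/6J replicate 4, among others. A p that misses the threshold does not show that the strains were alike in the rest.

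Genes of other liver cells were treated apart. Markers of Kupffer cells, the macrophages of the liver, were called lower in 129S1/SvImJ in 20 of 20, with a median log2 fold change of -2.07. The share called lower was 11.7% over all tested genes and 31.1% over tracking genes. Clec4f, a lectin found on mouse Kupffer cells, measured 12.3, 12.2 and 27.7 CPM in 129S1/SvImJ and 64.9, 64.1 and 53.8 CPM in C57BL/6J, and Cd5l, a macrophage-secreted protein, measured 9.46, 11.8 and 18.4 CPM in 129S1/SvImJ and 65.5, 64 and 49.6 CPM in C57BL/6J. Vsig4, a complement receptor, measured 2.64, 2.69 and 4.21 CPM in 129S1/SvImJ and 18.1, 15.5 and 12.5 CPM in C57BL/6J, and C1qa, a chain of complement C1q, measured 2.23, 3 and 6.32 CPM in 129S1/SvImJ and 22, 17.8 and 14.6 CPM in C57BL/6J. In every case the lowest C57BL/6J library was above the highest 129S1/SvImJ library, which was replicate 3. The summed list ran from 68.1 to 142 CPM against 335 to 428 CPM. The count was 15 without 129S1/SvImJ replicate 1 and at least that in the other leave-one-out fits. All 20 markers were above 0 in all 6 libraries, so RNA of macrophages was measured in both strains.

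Other non-hepatocyte lists gave fewer calls, with shares near or below the 11.7% of all tested genes called lower for the endothelial, stellate and dendritic cell lists. Of 19 endothelial markers, 2 were lower (Clec4g and Cdh5; 10.5%) and 17 did not pass, with a median of -0.90; the summed list was 154 to 308 CPM against 289 to 500 CPM, so the strains overlapped. Stab2, an endothelial scavenger receptor, measured 18.8, 18.3 and 32 CPM in 129S1/SvImJ and 19.2, 29.1 and 44.2 CPM in C57BL/6J. Clec4g, a lectin of sinusoidal endothelium, measured 6.27, 8.36 and 14.1 CPM in 129S1/SvImJ and 24.7, 26.3 and 39.2 CPM in C57BL/6J, a call lost without 129S1/SvImJ replicate 1 or 2 or C57BL/6J replicate 4, and the call of Cdh5 was lost when any of these or C57BL/6J replicate 2 was left out. Of 16 stellate cell markers 1 was lower (6.25%), the collagen gene Col3a1, at 0.492 ± 0.192 CPM in 129S1/SvImJ against 2.41 ± 0.588 CPM in C57BL/6J (SD, n = 3 each). Of 7 lymphocyte markers 3 were lower (Lck, Ccl5 and Il2rb; 42.9%), and of 9 dendritic cell markers 1 (Itgax; 11.1%). Of 3 bile duct markers 1 was lower, Spp1 (osteopontin), at 0.93 ± 0.0273 CPM in 129S1/SvImJ against 5.49 ± 0.373 CPM in C57BL/6J (SD, n = 3 each). None of 6 neutrophil and monocyte markers and of 2 platelet markers was called by edgeR; 2 of the former were lower at an unadjusted p under 0.05 and by DESeq2. Among lymphocyte markers Klrb1c and Cd8a were at 0 in all 129S1/SvImJ libraries, and Ly6g and Camp, of neutrophils, were at 0 in all 6 libraries. Of 6 erythroid markers 1 was lower (Hbb-bt), 1 higher (Car1) and 4 did not pass. Hbb-bt, a globin chain of red cells, held 0 counts in the 129S1/SvImJ libraries and 84, 41 and 36 in C57BL/6J, at least 21.9-fold lower against the same floor. Car1, a carbonic anhydrase of red cells, was 2.5-fold higher, at 4.57 ± 1.56 CPM in 129S1/SvImJ against 1.83 ± 0.386 CPM in C57BL/6J (SD, n = 3 each), a call lost without 129S1/SvImJ replicate 2 or C57BL/6J replicate 4, and both were lost in the covariate fit. The Ccl5 call was lost when any single library was left out, and that of Itgax without 129S1/SvImJ replicate 1 or 2 or C57BL/6J replicate 4. Of 14 hepatocyte markers, 4 were lower (Cyp8b1, Fgb, Ahsg and Apob; 28.6%) and 10 did not pass, with 1 lower without 129S1/SvImJ replicate 2 and 2 without C57BL/6J replicate 2 or 4, and albumin took 11.04% to 12.2% of counts in the 6 libraries. Cyp8b1 was close to the threshold (edgeR adjusted p = 0.0494).

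**Figure D5:**
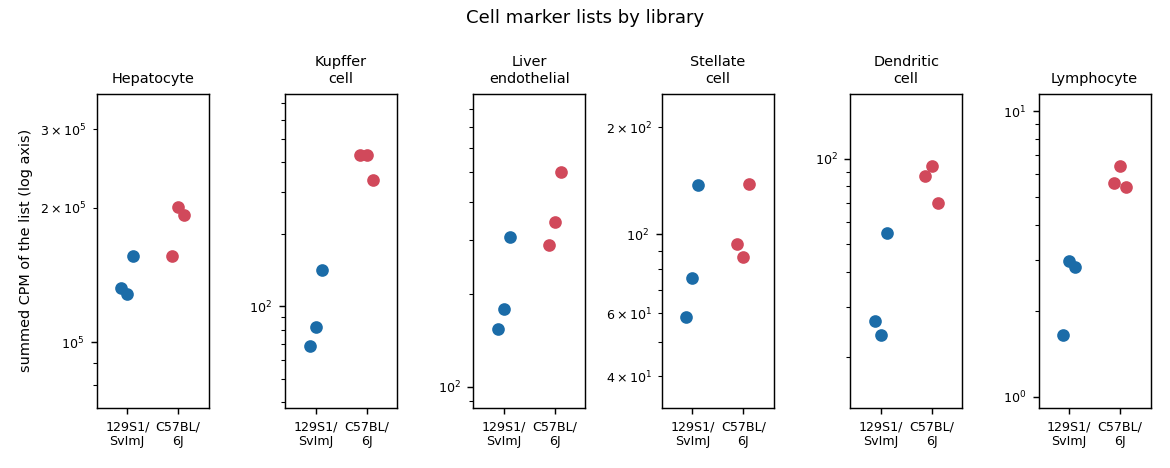
Summed CPM of 6 marker lists, a point per library, on log axes with a scale of its own in each panel. Kupffer cell markers separate, at 68.1 to 142 CPM in 129S1/SvImJ and 335 to 428 CPM in C57BL/6J, while stellate cell markers, at 58.6 to 137 and 86.6 to 138 CPM, overlap.

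Among tracking genes within the same limits on level, overlap and whole counts, the 5 largest decreases were Mme, Robo1, Rsad2, Serinc2 and Sucnr1. Tracking genes with larger decreases than some of these were left out because their counts are not whole in 5 or 6 libraries, among them Cyp2b9, Cyp2b13, Cyp2b10 and Pltp, given above. Mme (neprilysin), a peptidase of the cell surface at chr3:63241537-63386030, measured 2.88, 2.58 and 2.64 CPM in 129S1/SvImJ and 86.6, 89.9 and 127 CPM in C57BL/6J and was 37.4-fold lower (log2 -5.22 ± 0.40 SE, edgeR adjusted p = 7.06e-10). Robo1, a guidance receptor at chr16:72308306-73046095, measured 0.124, 0.744 and 0.652 CPM in 129S1/SvImJ and 8.07, 16.3 and 12.3 CPM in C57BL/6J. Sucnr1, the succinate receptor, measured 7.91, 9.47 and 8.87 CPM in 129S1/SvImJ and 31.3, 51.7 and 60.3 CPM in C57BL/6J, and Serinc2, a membrane protein of serine incorporation, measured 2.95, 2.23 and 2.38 CPM in 129S1/SvImJ and 20.7, 14 and 13.6 CPM in C57BL/6J. These 4 and Rsad2 were called in all 16 other fits, the covariate fit included. The 5 increases named by the same rule include Apcs, given above. Tmem51, a membrane protein, measured 12.6, 17.6 and 19.7 CPM in 129S1/SvImJ and 3.25, 3.33 and 2.61 CPM in C57BL/6J, and both were called in all 16 other fits. Ccl9, a chemokine of myeloid cells, measured 104, 129 and 147 CPM in 129S1/SvImJ and 55.6, 81.6 and 87.3 CPM in C57BL/6J, and Slc35c2 and Galnt11, proteins of glycosylation, were 1.63-fold and 1.55-fold higher. Ccl9 and Slc35c2 lost the call without 129S1/SvImJ replicate 3 or C57BL/6J replicate 1, and both and Galnt11 lost it with TMM factors from genes that do not track.

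In the covariate fit 650 genes were called, 342 higher and 308 lower, of which 598 were also called as reported. Those list means differ between the strains themselves, so the fit removes part of any difference that goes with them. Genes that kept their call include Sult2a6, Ctse, Prom2, Cyp2c39, Cyp2b9, Serpina3c, Apoa4, Grb10, Hmgcs1, Hyou1, Hspa8, Dct, Nlrp12, Mme and Robo1. Besides the genes for which this is said above, the calls of Irf7, Usp18, Ifit3, Oas1a, Oas3, Bst2, Canx, Pdia6, Acat2, Acadm, Acads, Vnn1, Cpt1a, Creb3l3, Slc25a20, Mttp, Cyp8b1, Fgb, C3, Pzp, Selenop, Fmo5, Mgst1, Sult1e1, Sult2a3, Sult2a5, Atp6v0d2, Prlr, Hmox1, Hdac1, Per2, C1qa, Vsig4, Cdh5, Lck, Ccl5, Il2rb and Itgax were lost in it. Without TMM factors the calls of Srebf2, Vnn1, Cpt1a, Creb3l3, Slc25a20, Cyp8b1, Pdia6, Hdac1, Per2, Prlr and Ccl5 were lost as well. The estimates of Clec4f, Cd5l and Csf1r, Kupffer markers that form the covariate, moved to 0.10, 0.12 and 0.13.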

How the data were processed

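RNA of hepatocytes was extracted with a column kit and made into libraries after poly(A) selection with the TruSeq RNA Sample Prep Kit v2, per the labels' protocols; that kit is not stated to keep strand. The authors deposited estimated counts per Ensembl gene, 1 column a library, which need not be whole: 11.1% of values differed from a whole number by more than 1e-06. The submitters' processing notes name GRCm38 (mm10), FastQC 0.11.5 and DESeq2; the aligner, the counting program and the genome used for reads of each strain are not given in the sources used here. Reads of 129S1/SvImJ that differ from the reference sequence may therefore be counted less fully, which was not tested.

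The counts were rounded, which changed no total by more than 0.000261%. Of 43346 genes, 14482 passed filterByExpr and were fitted in edgeR 4.0.16 (R 4.3.3) with quasi-likelihood tests, TMM and strain as the only term, over all 27 libraries, which share 18 residual degrees of freedom; the contrast is 129S1/SvImJ minus C57BL/6J. An adjusted p (Benjamini-Hochberg) under 0.05 is called. Tracking was computed on log2 CPM (prior count 2) over the 21 libraries of the other 7 strains. In simulated counts of 14083 genes for this contrast, 69% of 100 genes changed 2-fold and 92% of 100 changed 4-fold were recovered, with 7 false calls. The changed genes left out the lowest expressed, and increases and decreases were equal in number. Each gene was drawn independently. Shared variation between genes and shifts of composition between strains were therefore not simulated, and the false calls do not measure them. Counting intervals and floors cover counting error only. The settings tried are in the closing section.

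Members, lists and rules were chosen with earlier results of these data known. Genes named with values are the 12 largest increases and decreases that do not track another cell type, with a mean of at least 10 CPM in the higher strain, no overlap between the strains and counts that are not whole in at most 3 of the 6 libraries; the 5 largest of each kind that do track; up to 4 members a list with a change of 2-fold or more; the most expressed markers; and the 5 called genes with the most counts. Others, such as Srebf2, Gnmt, Xbp1, Nlrc5, Irf7, Gsta3, the genes whose promoters are printed and members near the middle of their list, were chosen after their values were seen. Gene positions come from GENCODE M21 (GRCm38), promoters from RefSeq (GRCm38.p6, 32851 windows); the bases after the start of 152 of 219 checked windows (69.4%) were found in a GENCODE transcript of the gene, in sense. Names were found for 42462 gene IDs. Results for a few list members are not reported here, though the counts and medians of their lists include them. Depths are given with the results.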

Additional observations from a re-analysis of the deposited data

How the results depend on the processing

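In the 16 other fits no gene called as reported was called in the opposite direction. Fitting the 6 libraries alone gave 853 higher genes, 830 of them not tracking another cell type. With Kupffer and endothelial list means as covariates 650 genes were called, 342 higher and 308 lower, 525 of them at 2-fold or more; 294 higher and 239 lower genes do not track another cell type. Among named genes called as reported, the log2 fold changes of Cfp, E2f1, Clec4f, Cd5l and Csf1r changed sign in that fit, to 0.17, 0.064, 0.10, 0.12 and 0.13; those of some named markers that did not pass changed sign too, such as H2-Aa from -1.24 to 1.66. Library totals without TMM gave 3169 higher and 914 lower genes, of which 3097 and 488 do not track. Leaving out single libraries gave 1492 to 4279 called genes, 570 to 2167 higher and 922 to 2112 lower; 986 to 1612 at 2-fold or more; and 546 to 2144 higher and 541 to 1082 lower among genes that do not track. The cause of these shifts was not tested. Deviations of same-numbered libraries correlated at 0.19 (replicate 1) and 0.07 (replicate 2), and the labels do not say that a number marks a shared batch or day; these 2 pairs do not settle whether the numbers pair the libraries. A replicate block gave 2652 calls. Other processing choices gave 3561 calls (DESeq2) down to 2723 (no filter on low counts). Precision is limited by 3 libraries a strain, by 1 library that stands apart in C57BL/6J, and for genes under 1 CPM by counting, since 1 count was worth 0.0286 to 0.0421 CPM.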

Other observations

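The share of tested genes that were called differed by chromosome. Among autosomes it ran from 15.98% on chromosome 16 to 26.2% on chromosome 14, and it was 13.9% on the X chromosome. Of 15 tested mitochondrial genes 5 were called. Of 4 tested genes annotated on the Y chromosome 3 were lower in 129S1/SvImJ (Gm37158, Gm47283 and Gm21244), and their counts are not whole in any of the 6 libraries. Among genes that do not track another cell type, the share changed 2-fold or more was 11.4% on chromosome 9, 11.3% on chromosome 14 and 11.2% on chromosome 4, against 4.95% on chromosome 16 and 3.51% on the X chromosome. No test was made of these shares.

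Of the 3026 called genes, both strains lay inside the range of the other 7 strains for 1336, and both lay outside it for 226, on opposite sides for 213 and on the same side for 13. The 129S1/SvImJ mean was above the other 8 strains for 453 of the 1332 higher genes and below them for 534 of the 1694 lower ones. C57BL/6J was below the other 8 for 449 of the higher genes and above them for 467 of the lower ones.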
